A study of Mus musculus with 4 samples.

Results

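This comparison set 1 array of Tacc3 fl/fl mouse intestinal organoids against 1 array of Tacc3 wt/wt organoids, both collected at day 4. These are 2 of the 4 arrays of the study, whose other 2 arrays hold the same genotypes at day 6. Organoids are cultures of intestinal epithelium that grow in 3 dimensions in Matrigel and hold stem cells, absorptive cells and secretory cells. All 4 cultures, wt/wt included, received 4-hydroxytamoxifen (4OHT) for 24 hours, which the design text says was given to recombine Apc and Tacc3. A floxed allele (fl) is one that Cre recombinase can cut out, and a wt/wt organoid has no floxed Tacc3 allele. The sample descriptions call the day 4 organoids normal and the day 6 organoids Apc-deficient, so the labels do not settle the Apc state at day 4. The Cre line, the floxed exons, the age and the number of animals behind each culture were not given in the sources used here. Each genotype and day is a single array without replicates, so the values below are sizes with no p-value or SD, and the number of arrays limits the precision.

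Tacc3 encodes a spindle protein that works with clathrin and the microtubule polymerase Ckap5 to bundle and stabilise the microtubules of the mitotic spindle. Apc encodes the scaffold of the complex that marks beta-catenin for destruction. In the intestinal crypt, Paneth cells secrete antimicrobial proteins and goblet cells secrete mucus, and both fold and glycosylate large amounts of protein in the endoplasmic reticulum (ER). The ER stress sensors Ern1 (IRE1), Atf6 and Eif2ak3 (PERK) are known to raise the expression of ER chaperones and of the machinery of ER-associated degradation (ERAD), in part through promoter sequences called ER stress response elements.

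Intensities were compared as log2(intensity + 16), a scale on which the differences of dim genes are understated. Of 18193 genes with a probe set, 11392 were above the filter on dim genes and were tested for size. The median difference of these genes (fl/fl minus wt/wt) was 0.15 on the deposited scale, and 2.5% and 97.5% of the genes lay below -0.55 and 0.88. The upward shift depended on the level. It was 0.076 for the 6742 genes under an intensity of 100, 0.26 for the 3771 genes between 100 and 500 and 0.18 for the 879 genes over 500. Each comparison is therefore also given after centring each array on its median over the tested genes, which lowers every difference by 0.21. The direction of the shift depends on the scale: after centring the median was -0.062, after quantile normalization 0.012, after loess -0.0025, and after scaling to the poly-A spike-ins, which were 1.61-fold brighter in the wt/wt array, 0.66. All lists are read below against the median of all genes on the same scale. Most of those genes were under an intensity of 100, and the lists were not compared with genes of their own level. The part of the level in a list's distance from that median was not tested.

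On the deposited scale, 157 genes (1.38% of those tested) were at least 2-fold higher in fl/fl organoids and 12 genes (0.105%) were at least 2-fold lower. After centring, 44 genes (0.386%) were higher and 47 (0.413%) were lower. Quantile normalization counted 1.02% of genes as higher and 38 (0.334%) as lower, and loess 65 (0.571%) and 27 (0.237%). A group of 43 genes (0.377%) was higher on all 4 scales, and the same 12 genes were lower on all 4 scales. The wt/wt array at day 4 was the lowest of the 4 arrays for 147 of the 157 higher genes, and the fl/fl array at day 4 was the highest for 47. The choice of genes by the same day 4 values favours both counts, so nothing is read from them. After centring, 83 of the 157 genes (52.9%) had a positive difference at day 6, and 1 was 2-fold higher at both days on the deposited scale. The centred day 6 median of all genes tested was itself positive, at 0.014. The share of 52.9% is therefore not read as agreement between the days.

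**Figure D1:**
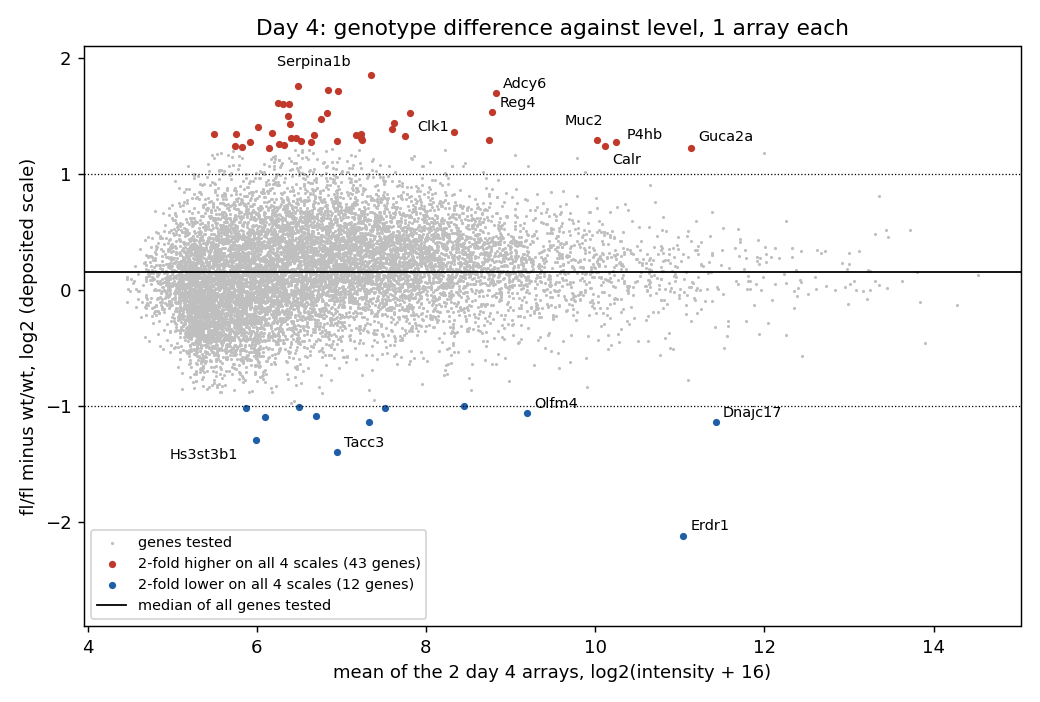
Day 4 difference (fl/fl minus wt/wt, log2, deposited scale) of each of the 11392 genes tested, against the mean of both day 4 arrays. Red points are the 43 genes 2-fold higher on all 4 scales, blue points the 12 genes 2-fold lower on all 4 scales, the solid line is the median of 0.15 and the dotted lines mark 2-fold. P4hb, Calr, Muc2 and Guca2a are among the brightest of the higher genes, and Erdr1 is the lowest gene.

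The epithelial genes were bright in both day 4 arrays. Vil1, encoding the microvillus protein villin, was 623 for wt/wt against 889 for fl/fl. Epcam, an epithelial adhesion gene, was 901 for wt/wt against 1446 for fl/fl (another probe set was 190.1 and 169.8), and Cdh1, encoding E-cadherin, was 684 for wt/wt against 915 for fl/fl. Some defining genes of other tissues were below the filter on dim genes. Col1a1 was 18.0 and 14.4, and Col3a1 was 5.11 and 5.30. The pan-leukocyte gene Ptprc was 6.77 and 4.68, and the endothelial gene Pecam1 was 25.6 and 16.6. Other such genes were above the filter and differed in direction. The mesenchymal genes Fn1 and Vim were 142 and 27.4 for wt/wt against 209 and 36.9 for fl/fl. Acta2 was 45.6 for wt/wt against 44.3 for fl/fl. The endothelial gene Eng was 98.3 for wt/wt against 57.2 for fl/fl, and the immune gene Laptm5 96.99 against 54.2. The summed intensity of the mesenchymal list was 523 for wt/wt against 503 for fl/fl, with 6 of 19 genes tested, and that of the endothelial list was 310 and 239, with 3 of 13 tested. The immune list summed to 2402 and 3285, of which Lyz2, which Paneth cells also express, made up 1887 and 2857. The ratio of the 5' to the 3' control probe sets, a sign of RNA integrity, was 0.0610 for wt/wt against 0.0627 for fl/fl for Actb, and 0.208 and 0.142 for Gapdh. At day 6 the ratios were higher, at 0.180 for wt/wt and 0.261 for fl/fl for Actb, and 0.411 and 0.524 for Gapdh. The part of these differences in the results below, across the genotypes or across the days, was not tested.

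The used Tacc3 probe set was 184 for wt/wt against 59.8 for fl/fl at day 4, and 167 against 49.7 at day 6. The level in fl/fl organoids was 32.5% of that in wt/wt at day 4, a difference of -1.40 (-1.61 after centring), and both fl/fl arrays lay below both wt/wt arrays. Over the mean of the 3 Tacc3 probe sets the difference was -0.72. The array does not say which exons the probe sets cover, so these values need not measure the recombined part. Apc was dim at day 4, 27.9 for wt/wt against 53.5 for fl/fl, a difference of 0.66. Its other probe sets above the filter disagreed in sign, with -0.11 (81.9 for wt/wt against 75.0 for fl/fl) and 0.45 (28.5 against 45.1). Of 24 genes fixed as TACC3 partners and spindle assembly factors, 23 were tested, with a median of 0.18, and 14 lay above the median of all genes. Tubgcp3, a subunit of the gamma-tubulin ring complex, was 17.7 for wt/wt against 59.4 for fl/fl at day 4, and 146 against 107 at day 6, a day 4 difference of 1.16. Ckap5, the microtubule polymerase that TACC3 recruits, was 56.7 for wt/wt against 31.7 for fl/fl, a difference of -0.61, with 0.014 from its other probe set. Aurka, encoding the kinase that phosphorylates TACC3, differed by 0.13, and the clathrin heavy chain gene Cltc by 0.63, with -0.056 from another probe set of Cltc. The paralogs Tacc1 and Tacc2 differed by 0.061 and 0.077, both below the median of all genes.

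Genes of protein folding and quality control in the ER stood highest among the 42 gene lists. The lists and their members were chosen with earlier results of these data known, so the rank is a description and no independent support. Of 42 names on the list of ER chaperones and ERAD, 40 were tested. Their median difference was 0.72 (0.51 after centring), against 0.15 for all genes, and 33 of 40 (82.5%) lay above the median of all genes, where 50% is the share over all genes. On the deposited scale, 9 of the 40 (22.5%) were 2-fold higher, against 1.38% of all genes, and after centring 3 (7.5%), against 0.386%, while none was 2-fold lower on either scale, with 12 and 47 lower genes in all. At day 6 the median of the same genes was 0.26. The wt/wt array at day 4 was the lowest of the 4 arrays for 31 of the 40 genes, against 45% of all genes. The fl/fl array at day 4 was the highest for 16 of them (40%), against 25% of all genes. Where each gene was taken as the mean of all its probe sets, the list's median lay 0.33 above that of all genes, rather than 0.57 with the brightest probe set.

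P4hb, encoding protein disulfide isomerase, was 767 for wt/wt against 1873 for fl/fl at day 4, and 1373 against 1561 at day 6. Its difference at day 4 was 1.27 (1.06 after centring) and at day 6 0.18. Calr, encoding the lectin chaperone calreticulin, was 707 for wt/wt against 1691 for fl/fl at day 4, and 1058 against 1232 at day 6, with differences of 1.24 (1.03 after centring) and 0.22. For both genes the fl/fl array at day 4 was the highest of the 4 arrays and the wt/wt array at day 4 the lowest. Hspa5 encodes BiP, the main Hsp70 chaperone of the ER. It was 647 for wt/wt against 1322 for fl/fl at day 4, and 1335 against 2126 at day 6, a day 4 difference of 1.01, so that the fl/fl array at day 4 lay close to the wt/wt array at day 6. This rests on the used probe set: an s_at probe set, at 536 for wt/wt against 382 for fl/fl, differed by -0.47 in the opposite direction, and an x_at probe set, at 192 and 194, by 0.015. The partner genes Dnajc3 and Pdia6, a co-chaperone that also inhibits PERK and a disulfide isomerase, differed by 1.07 and 1.07, and the disulfide isomerase Txndc5 by 1.07.

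Genes of ERAD, which sends misfolded proteins to the proteasome, differed among themselves. Herpud1, a membrane component of the ERAD complex, was 81.2 for wt/wt against 222 for fl/fl at day 4, and 262 against 274 at day 6, a day 4 difference of 1.29 (1.08 after centring). Syvn1, encoding the ubiquitin ligase HRD1, was 69.0 for wt/wt against 171 for fl/fl at day 4, and 216 against 152 at day 6, a difference of 1.13, and at day 6 the difference was -0.47. Edem1, which picks out mannose-trimmed substrates, differed by 1.20. For Herpud1, Syvn1 and Edem1 a second probe set gave smaller values of 0.41, 0.53 and 0.51. Of 39 other probe sets of the list's genes, 26 (66.7%) had the sign of the used probe set after centring, against 54.3% of the 7833 other probe sets of all genes. Probe sets of 1 gene thus often disagreed in sign on these arrays, and values of other probe sets above the filter are given below where they oppose a gene of the lists.

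The sensors and factors that control these genes differed by less than 2-fold on the log2(intensity + 16) scale. Ern1 was 81.1 for wt/wt against 144 for fl/fl and Atf6 31.1 for wt/wt against 61.7 for fl/fl, differences of 0.72 and 0.72. Xbp1, encoding the factor that IRE1 splices, was 569 for wt/wt against 1038 for fl/fl at day 4, and 1505 against 1270.1 at day 6, a day 4 difference of 0.85, and its other probe sets gave 0.97, 0.38 and -0.40. The other probe set of Ern1 gave -0.052. Ern2, the IRE1 paralog of goblet cells, differed by 0.15, and Eif2ak3 by 0.90. Some well-known members lay near or below the median of all genes: Dnajb9, a BiP co-chaperone, differed by -0.059, Uggt1, the glycoprotein folding sensor, by 0.064, Derl3 by -0.19, and Hyou1, an ER chaperone of the Hsp110 family, by 0.20, with -0.29 from another probe set of Hyou1. The list of ATF4 and integrated stress genes, downstream of PERK, had a median of 0.39 over 31 of 35 names, with 23 above the median of all genes. Atf4 itself was 846 for wt/wt against 742 for fl/fl, a difference of -0.19, and another probe set gave 0.072. Its targets Slc3a2, an amino acid transporter subunit, and Asns, encoding asparagine synthetase, differed by 1.20 and 0.61.

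**Figure D2:**
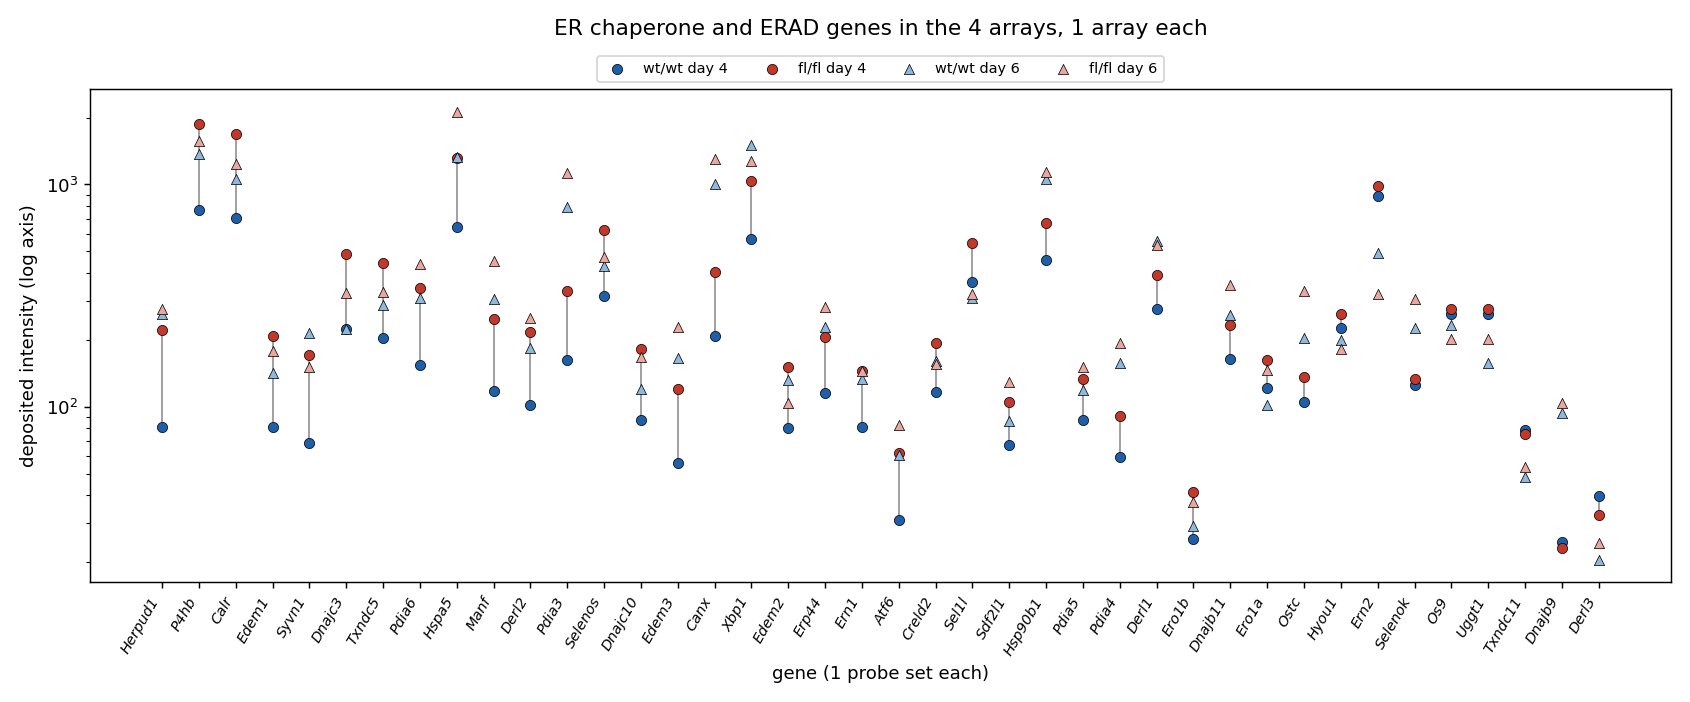
Deposited intensity (log axis) of the 40 tested genes of the ER chaperone and ERAD list in the 4 arrays, 1 point per array, in order of their day 4 difference, with a line joining both day 4 arrays. The wt/wt array at day 4 (dark blue) is the lowest point for 31 genes, and the fl/fl array at day 4 (dark red) is the highest for 16, P4hb and Calr among them. Over all genes tested the shares are 45% and 25%.

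The promoters of this list were searched because their known control element can be read from the sequence. The ER stress response element (ERSE) was searched as CCAAT and CCACG with 9 bases of any kind between them, and the related ERSE-II as ATTGG and CCACG with 1 base between them, on both strands, in windows of 250 bases before to 50 bases after each RefSeq start site. Both motifs hold CCACG, and ATTGG is the reverse complement of CCAAT. Of the 34 tested list genes with a promoter in the table, 10 (29.4%) held an ERSE and 2 (5.88%) an ERSE-II. Among all 9232 tested genes with a promoter, 14 (0.152%) held an ERSE and 9 (0.0975%) an ERSE-II. Of 27025 genes with a promoter, tested or not, 37 (0.137%) held an ERSE. The list is made of kinds of genes that this element is known to control, so its higher share was to be foreseen whatever their values here. The stretches below are shown for 5 genes that were 2-fold higher at day 4, read 5' to 3' on the strand of the gene from RefSeq on GRCm38.p6, with the motif in capitals. In Calr the motif lies on the reverse strand, and Herpud1 carries the ERSE-II.
Calr, chr8:84847045-84847123, minus strand: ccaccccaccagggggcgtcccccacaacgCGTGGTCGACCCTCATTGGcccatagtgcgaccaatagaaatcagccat
Syvn1, chr19:6046502-6046575, plus strand: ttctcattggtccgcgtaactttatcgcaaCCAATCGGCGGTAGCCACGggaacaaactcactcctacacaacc
Dnajc3, chr14:118937797-118937875, plus strand: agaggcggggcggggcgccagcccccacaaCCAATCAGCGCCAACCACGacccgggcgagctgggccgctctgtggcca
Hspa5, chr2:34771995-34772073, plus strand: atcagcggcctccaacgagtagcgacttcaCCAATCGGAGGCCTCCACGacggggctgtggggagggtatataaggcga
Herpud1, chr8:94386347-94386417, plus strand: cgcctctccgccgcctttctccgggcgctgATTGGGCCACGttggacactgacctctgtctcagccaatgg

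The 14 tested genes with an ERSE had a median day 4 difference of 0.60, and 12 of them lay above the median of all genes. Of these 14, 10 were members of the ER chaperone and ERAD list, with a median of 0.96 and 9 above the median of all genes. The values of the group therefore largely restate those of the list. Besides Calr, Syvn1, Dnajc3, Hspa5 and Pdia6, which were 2-fold higher, the group held Canx, encoding calnexin, with a difference of 0.91, Creld2 with 0.66 and Hsp90b1, encoding the ER Hsp90 GRP94, with 0.53. Outside the list, Alg12, a mannosyltransferase of N-glycan assembly, differed by 0.39, Pan2 by 0.49 and Spats2l by 0.45, with -0.065 and -0.20 from other probe sets of Alg12 and Spats2l. Adcy3, encoding an adenylate cyclase, also carried the motif and was lower, with a difference of -1.09, and Derl3 was the other gene below the median of all genes. Of the 9 tested genes with an ERSE-II, 4 lay above it, with a median of -0.0028. A match describes the letters of the promoter only.

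The machinery that brings proteins into the ER and carries them onward stood next to the chaperones. Of 36 names of the translocon and N-glycosylation list, 34 were tested, with a median of 0.53, and 29 (85.3%) lay above the median of all genes. Ssr4, a subunit of the translocon-associated complex, was 226 for wt/wt against 499 for fl/fl at day 4, and 715 against 855 at day 6, a day 4 difference of 1.09, but its other probe sets gave -0.43 and -0.29. Rpn2, a subunit of the oligosaccharyltransferase, was 124 for wt/wt against 267 for fl/fl at day 4, and 359 against 391 at day 6, a difference of 1.01, and its partner Rpn1 differed by 0.81. In all 3 genes the wt/wt array at day 4 was the lowest. Coat proteins of COPI and COPII vesicles and their cargo receptors gave 38 tested genes of 41, a median of 0.49 and 34 genes (89.5%) above the median of all genes. None was 2-fold different in either direction. With 1.38% of all genes 2-fold higher and 0.105% lower, a count of none says little for a list of this size. Kdelr2, the receptor that returns ER proteins from the Golgi, differed by 0.81, the cargo receptor Lman2 by 0.86 and the coat subunit Sec13 by 0.78. Sec23a, the COPII subunit, was the lowest member, 70.4 for wt/wt against 35.5 for fl/fl, a difference of -0.75. Golgi transferases that build O-glycans had a median of 0.23 over 33 of 43 names. Among them Gcnt3, which branches mucin O-glycans, was 103 for wt/wt against 226 for fl/fl, a difference of 1.02, and the sialyltransferase St3gal6 was 199.5 for wt/wt against 103 for fl/fl, a difference of -0.86. The other probe sets of St3gal6 gave 0.25 and 0.39, in the opposite direction.

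Of the secretory cell types, Paneth and goblet cell transcripts were mostly higher in the fl/fl array at day 4, and in bulk RNA more cells of a type cannot be told apart from more RNA per cell. The Paneth list had 17 of 26 names tested and a median of 0.52 (0.30 after centring), and 15 of 17 (88.2%) lay above the median of all genes. At day 6 the median was -0.010. The fl/fl array at day 4 was the highest of the 4 arrays for 14 of the 17 genes (82.4%), against 25% of all genes. The wt/wt array at day 4 was the lowest for 3, against 45% of all genes. Over the 40 chaperone genes these counts were 16 and 31. Summed over 18 genes on the array, the Paneth list was 54082 for wt/wt against 75950 for fl/fl at day 4, and 49836 against 46184 at day 6.

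Mmp7, encoding the protease that activates Paneth cell defensins, was 2701 for wt/wt against 6116 for fl/fl at day 4, and 1702 against 1690.2 at day 6. The fl/fl array at day 4 stood well above the other 3 arrays, with a difference of 1.17 (0.96 after centring). Itln1, encoding the lectin intelectin, was 7927 for wt/wt against 13863 for fl/fl at day 4, and 8468 against 7134 at day 6, a difference of 0.81. Clps, encoding colipase, differed by 0.74, the phospholipase gene Pla2g2a by 0.75 and the ribonuclease gene Ang4 by 0.52. Lyz1, the classic Paneth cell lysozyme, was bright and differed by 0.12, from 22578 to 24590.5, close to the median of all genes. Guca2a, encoding the peptide guanylin that drives fluid secretion, stood on both the Paneth and the goblet list and was 1461 for wt/wt against 3423 for fl/fl at day 4, and 2763 against 3314 at day 6, a difference of 1.22.

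The goblet list had 27 of 29 names tested and a median of 0.43 (0.21 after centring), with 20 (74.1%) above the median of all genes. At day 6 the median was 0.0099. Here 4 genes (14.8%) were 2-fold higher, against 1.38% of all genes, and none 2-fold lower, against 0.105%. The fl/fl array at day 4 was the highest for 17 of 27 (63%), against 25% of all genes. Muc2, encoding the gel-forming mucin of the intestine, was 648 for wt/wt against 1611 for fl/fl at day 4, and 676 against 583 at day 6, a difference of 1.29 (1.08 after centring). Agr2, encoding a disulfide isomerase that Muc2 needs for folding, was 340.2 for wt/wt against 781 for fl/fl at day 4, and 488 against 559.8 at day 6, a difference of 1.16. Sytl2, which helps dock mucin granules at the apical membrane, was 52.6 for wt/wt against 209 for fl/fl at day 4, and 99.2 against 79.7 at day 6, a difference of 1.71 (1.499 after centring). In Muc2, Agr2 and Sytl2 the fl/fl array at day 4 was the highest of the 4. Spdef, a transcription factor of goblet and Paneth cell maturation, was 134 for wt/wt against 264 for fl/fl at day 4, and 88.2 against 89.0 at day 6, a difference of 0.90. Atoh1, the factor that commits cells to the secretory lineage, was dim and differed by 0.19, and the mucus proteins Zg16 and Clca1 differed by -0.093 and 0.093, with 0.47 from another probe set of Zg16.

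**Figure D3:**
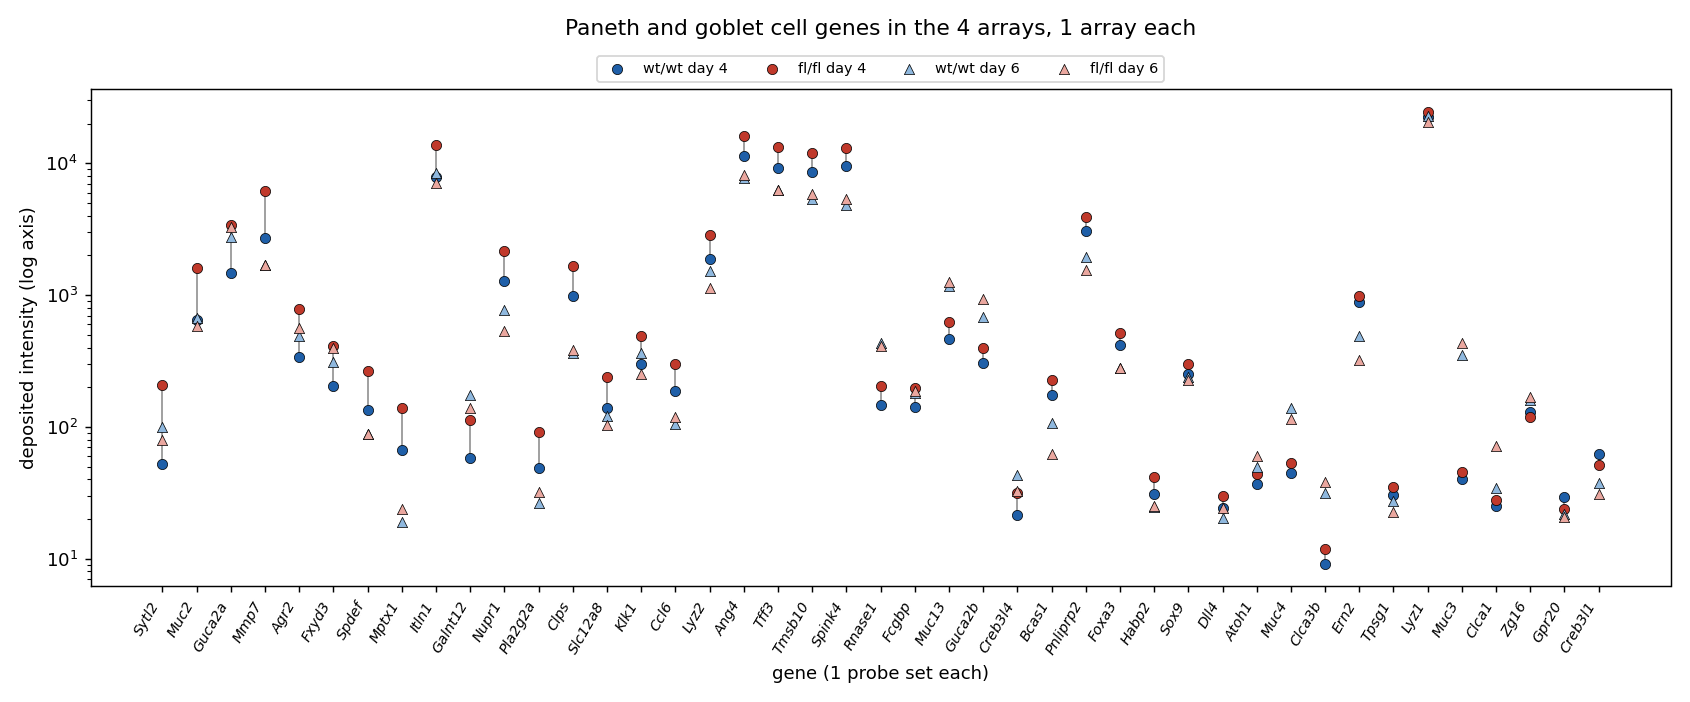
Deposited intensity (log axis) of the tested Paneth and goblet cell genes in the 4 arrays, 1 point per array, in order of their day 4 difference, with a line joining both day 4 arrays. The fl/fl array at day 4 (dark red) is the highest of the 4 for 14 of 17 Paneth genes and 17 of 27 goblet genes, as for Mmp7 and Muc2. Over all genes tested the share is 25%.

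The other epithelial lineages lay closer to the median of all genes. Enteroendocrine cells had a median of 0.15 over 23 of 30 names, with 12 above the median of all genes. Reg4, a secreted lectin of secretory crypt cells, was the exception in that list. It was 243 for wt/wt against 731 for fl/fl at day 4, and 258 against 256 at day 6, a difference of 1.53 (1.31 after centring), and only the fl/fl array at day 4 was high. The dim hormone and granule genes Ghrl and Scg3 differed by -0.46 and -0.52. Tuft cells had a median of -0.056 over 14 of 22 names, 3 of them above the median of all genes, and their marker Dclk1 was near the filter, 19.7 for wt/wt against 11.8 for fl/fl. Enterocytes had a median of 0.16 over 32 of 40 names. The peptidase gene Dpp4 was 25.6 for wt/wt against 52.8 for fl/fl at day 4, and 375 against 385 at day 6, a day 4 difference of 0.73, while its other probe sets gave -0.83 (45.4 for wt/wt against 18.5 for fl/fl), -0.0051 and 0.0098. The fatty acid carrier Fabp2 was 277 for wt/wt against 234 for fl/fl at day 4, and 1578 against 2616 at day 6, a difference of -0.23. By these probe sets both were several-fold brighter at day 6 in either genotype.

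The stem cell list had a median of 0.29 over 23 of 25 names and mixed members, with 13 above the median of all genes. Olfm4, a secreted glycoprotein that marks crypt stem cells, was 834 for wt/wt against 391 for fl/fl at day 4, and 6534 against 3478 at day 6. It was lower in fl/fl organoids at both days, with differences of -1.06 at day 4 (-1.28 after centring) and -0.91 at day 6. Both genotypes were far brighter at day 6. Lgr5, the R-spondin receptor of stem cells, was 262 for wt/wt against 405 for fl/fl, a difference of 0.60, opposite to Olfm4, but another probe set of Lgr5 gave -0.11. Rgmb, a BMP co-receptor, and Lrig1, a brake on ErbB receptors, differed by 1.16 and 1.02, both 2-fold on the deposited scale and not after centring. The other 5 probe sets of Rgmb ranged from -0.28 to 0.28. Ascl2, a stem cell transcription factor, differed by -0.14, and its other probe sets gave 0.50 and 0.21. Targets of Wnt and beta-catenin had a median of 0.29 over 22 of 32 names, with 15 above the median of all genes. Among these, Axin2, a feedback inhibitor, was 109 for wt/wt against 200.3 for fl/fl at day 4, and 584 against 429 at day 6, a day 4 difference of 0.79, but its other probe set was 134 for wt/wt against 90.7 for fl/fl, a difference of -0.49 in the opposite direction. Myc, the proliferation factor, was 75.7 for wt/wt against 182 for fl/fl at day 4, and 470.4 against 424 at day 6, a difference of 1.11, and the ubiquitin ligase gene Rnf43 differed by 0.84. At day 6 the differences of Axin2, Myc and Rnf43 were -0.43, -0.14 and -0.70. Notch pathway genes had a median of 0.12 over 29 of 31 names, with Adam10, the sheddase of Notch, at 1.03. Genes of EGFR signalling and MAPK feedback had a median of 0.35 over 22 of 28 names, with 17 above the median of all genes, and Dusp6, an ERK phosphatase, differed by 0.93. Fetal and YAP target genes had a median of 0.33 over 21 of 32 names. They held no 2-fold member, where 1.38% of all genes were 2-fold higher and 0.105% lower.

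The 25 genes with the largest centred differences among those higher on all 4 scales are described next in an order of known role that was set after their values were seen. Serpina1b and Serpina1c encode alpha-1-antitrypsin, a secreted protease inhibitor, and are near-identical neighbours whose probe sets may share targets. Serpina1b was 70.3 for wt/wt against 294 for fl/fl at day 4, and 105 against 132 at day 6, a day 4 difference of 1.85, the highest of all genes tested, and a second probe set gave 1.39. Serpina1c was 29.7 for wt/wt against 123 for fl/fl at day 4, and 23.8 against 43.2 at day 6, a difference of 1.602. Tmed6, of the p24 family of cargo receptors, was 27.5 for wt/wt against 117 for fl/fl at day 4, and 68.5 against 104 at day 6, a difference of 1.61. Retreg1, a receptor for autophagy of the ER, was 47.3 for wt/wt against 193 for fl/fl at day 4, and 157 against 172 at day 6, a difference of 1.72, but its second probe set was 146 and 147, a difference of 0.013. Saraf, an ER membrane protein that limits store-operated calcium entry, was 120.4 for wt/wt against 326 for fl/fl at day 4, and 273 against 431 at day 6, a difference of 1.33. Ces1c, a secreted carboxylesterase, differed by 1.34.

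Lysosomal genes had a median of 0.33 over 40 of 46 names, and 30 (75%) lay above the median of all genes. Ctsz, encoding the protease cathepsin Z, was 186 for wt/wt against 500.1 for fl/fl at day 4, and 392.5 against 498 at day 6, a difference of 1.35, and its other probe sets gave 0.34 and 1.09. Neu1, encoding the lysosomal sialidase, was 29.2 for wt/wt against 99.5 for fl/fl at day 4, and 211 against 176 at day 6, a difference of 1.35. Gusb, encoding beta-glucuronidase, was 43.2 for wt/wt against 128 for fl/fl at day 4, and 199 against 250.1 at day 6, a difference of 1.28. For Neu1 and Gusb the wt/wt array at day 4 was lower than the other 3 arrays.

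Of the same 25 genes, Adcy6, encoding an adenylate cyclase that makes cAMP, was 236 for wt/wt against 798 for fl/fl at day 4, and 1435 against 864 at day 6. The day 4 difference was 1.69 (1.48 after centring) and the day 6 difference -0.72. Ramp1, which with the calcitonin-like receptor forms the receptor for CGRP, was 104 for wt/wt against 309 for fl/fl at day 4, and 61.4 against 71.5 at day 6, a difference of 1.43, and was high only in the fl/fl array at day 4. Ptch1, the Hedgehog receptor, was dim, 12.4 for wt/wt against 55.9 for fl/fl, a difference of 1.34, but its other probe set was 41.4 for wt/wt against 23.5 for fl/fl, a difference of -0.54 in the opposite direction. Mark3, a kinase that detaches microtubule-associated proteins, was 31.8 for wt/wt against 129 for fl/fl at day 4, and 150.4 against 140.2 at day 6, a difference of 1.601. Cdk8, the kinase of the Mediator complex, was 74.9 for wt/wt against 213 for fl/fl, a difference of 1.33.

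Cyp2e1, an ethanol-oxidising cytochrome, was 51.1 for wt/wt against 177 for fl/fl at day 4, and 30.4 against 48.2 at day 6, a difference of 1.52, again highest in the fl/fl array at day 4. Cers2, which makes ceramides with very long chains, was 49.2 for wt/wt against 164 for fl/fl at day 4, and 221 against 212 at day 6, a difference of 1.47. The phosphate transporter Slc20a1 differed by 1.34, Tapt1 by 1.76, the transporter-like gene Mfsd11 by 1.43, the RNA-binding nuclease Snd1 by 1.40 and Rrp7a, of ribosomal RNA processing, by 1.33. The remaining named genes, Clk1, Hoxb3 and Hoxb5, were 2-fold different in the opposite direction at day 6. Of the 9 other probe sets of the 25 genes, 5 had the same sign after centring and 2 were 2-fold.

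Among the 12 genes lower on all 4 scales, the wt/wt array at day 4 was the highest of the 4 arrays in 10, a count that the choice of genes by that array favours. Erdr1, at the edge of the sex chromosomes' shared region, was 4377 for wt/wt against 994 for fl/fl at day 4, and 2210.3 against 303 at day 6. The difference was -2.12 at day 4 and -2.80 at day 6, and both fl/fl arrays lay below both wt/wt arrays. Its neighbour in gene order, Mid1, encoding a microtubule-associated ubiquitin ligase, was 106 for wt/wt against 53.9 for fl/fl at day 4, and 115 against 22.6 at day 6, a day 4 difference of -0.80 (-1.01 after centring). Erdr1 and Mid1 were the one pair of adjacent tested genes that was 2-fold lower together, and only after centring.

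Dnajc17, encoding a spliceosome-associated DnaJ protein, was 4069 for wt/wt against 1835 for fl/fl at day 4, and 1977 against 1009 at day 6, a difference of -1.14. The used probe set was by far the brightest of its 3, and the other one above the filter was 21.4 and 23.4, a difference of 0.073. The 3110021A11Rik gene was 478 for wt/wt against 231 for fl/fl at day 4, and 191 against 106 at day 6, a difference of -1.004, while its other probe set differed by 0.37 in the opposite direction. Both results thus rest on 1 probe set.

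A group of the lower genes shared 1 pattern, with a high value in the wt/wt array at day 4 and like values in the other 3 arrays. Hs3st3b1, a heparan sulfate sulfotransferase, was 83.9 for wt/wt against 24.6 for fl/fl at day 4, and 20.5 against 19.7 at day 6, a difference of -1.30. Psca, a surface antigen, was 83.8 for wt/wt against 30.8 for fl/fl at day 4, and 34.2 against 33.2 at day 6, a difference of -1.09. Adcy3 was 136 for wt/wt against 55.6 for fl/fl at day 4, and 57.7 against 45.8 at day 6, a difference of -1.09, opposite to its family member Adcy6. Crocc, encoding the ciliary rootlet protein rootletin, was 113 for wt/wt against 47.7 for fl/fl at day 4, and 53.8 against 52.95 at day 6, a difference of -1.01. The same held for the metalloprotease gene Adamts10, with a difference of -1.02, whereas Lce1h, of the cornified envelope family, was 245 for wt/wt against 113 for fl/fl at day 4, and 93.8 against 71.2 at day 6, a difference of -1.02. The remaining gene, 2610528A11Rik, was 223 for wt/wt against 92.2 for fl/fl at day 4, and 110.0 against 371 at day 6, differences of -1.14 at day 4 and 1.62 at day 6.

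**Figure D4:**
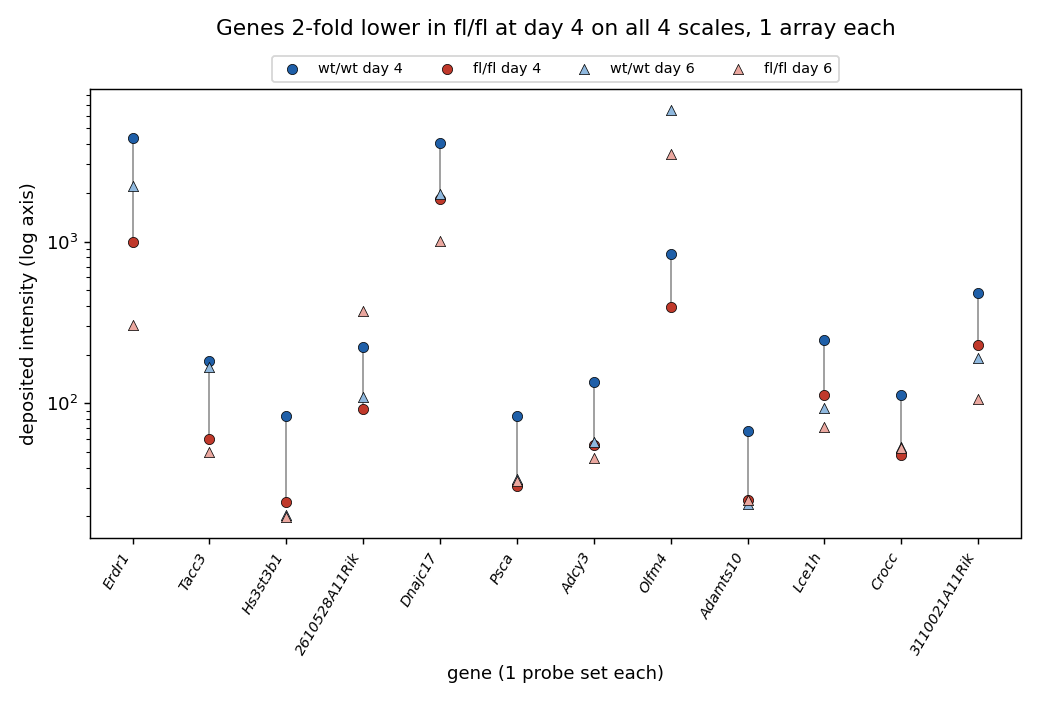
Deposited intensity (log axis) of the 12 genes 2-fold lower in fl/fl organoids at day 4 on all 4 scales, 1 point per array, with a line joining both day 4 arrays. The wt/wt array at day 4 (dark blue) is the highest of the 4 for 10 genes. Only for Erdr1 and Tacc3 are both fl/fl arrays at least 2-fold below the wt/wt array of the same day.

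Stress and immune response lists had medians between -0.070 and 0.43. Hypoxia genes had a median of 0.029 over 32 of 39 names, and 12 lay above the median of all genes. Bnip3, a mitophagy receptor that HIF induces, was 216 for wt/wt against 104 for fl/fl at day 4, and 65.0 against 181 at day 6, differences of -0.95 at day 4 and 1.28 at day 6. Egln3, an oxygen-sensing hydroxylase, was 235 for wt/wt against 145 for fl/fl at day 4, and 67.1 against 222 at day 6, differences of -0.64 and 1.52. The growth factor gene Vegfa differed by -0.63 and 0.21. Another Vegfa probe set gave -0.31 at day 4 and, in the opposite direction at day 6, -1.40 (153 for wt/wt against 48.0 for fl/fl). For Bnip3 and Egln3 the wt/wt array at day 4 was the highest of the 4 and the wt/wt array at day 6 the lowest. Interferon response genes had a median of -0.070 over 19 of 35 names, with 4 above the median of all genes. The nucleic acid sensors Zbp1 and Ddx58 differed by -0.70 and -0.58. Antigen presentation genes had a median of 0.43 over 15 of 25 names, and their highest members after Calr were the ER proteins Pdia3 with 0.96 and Tapbp, which loads peptides, with 0.92, although another probe set of Tapbp gave -0.39. Heat shock genes had a median of 0.24 over 20 of 25 names. Bag3, a co-chaperone, differed by 1.02, and Hspb1, a small heat shock protein gene, by -0.62. Targets of p53 had a median of 0.30 over 32 of 40 names, with 3 members (9.38%) 2-fold higher, against 1.38% of all genes. After centring 1 member (3.12%) was 2-fold higher, against 0.386% of all genes. Rap2b and Psrc1 differed by 1.07 and 1.02, but the other probe sets above the filter gave 0.061 and 0.043 for Rap2b and -0.018 for Psrc1. The detoxifying hydrolase gene Ephx1, also on the NRF2 list, was 62.1 for wt/wt against 165 for fl/fl at day 4, and 165 against 250.1 at day 6, a difference of 1.22. Immediate early genes had a median of 0.22 over 18 of 24 names and NRF2 targets 0.29 over 24 of 33.

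Cell division genes, where a spindle protein's partners act, lay close to the median of all genes. Mitosis and G2/M genes had a median of 0.16 over 50 of 51 names, with 26 (52%) above the median of all genes and a range of -0.28 to 0.89. None was 2-fold in either direction, where 1.38% of all genes were 2-fold higher and 0.105% lower. Espl1, encoding separase, was the highest, 53.2 for wt/wt against 113 for fl/fl, a difference of 0.89, and Foxm1, the transcription factor of mitotic genes, the lowest, -0.28, with 0.13 and 0.043 from its other probe sets. S phase and replication genes had a median of 0.18 over 37 of 39 names. Cdc6, which licenses replication origins, was 18.3 for wt/wt against 52.6 for fl/fl at day 4, and 95.5 against 92.7 at day 6, a difference of 0.998.

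Housekeeping genes had a median of 0.17 over 15 of 19 names, cytosolic ribosomal proteins 0.085 over 47 of 50, mitochondrial ribosomal proteins 0.26 over 75 of 75 and oxidative phosphorylation 0.24 over 75 of 79. Proteasome subunits had a median of 0.31 over 36 of 39 names, and Psmd13, of the regulatory particle, differed by 1.07. Cholesterol synthesis had a median of 0.17 over 27 of 31 names, fatty acid oxidation 0.23 over 25 of 30 and cytochromes and conjugation 0.22 over 28 of 40. In the last list Sult1b1, a sulfotransferase, was 74.7 for wt/wt against 36.1 for fl/fl at day 4, and 152 against 317 at day 6, a day 4 difference of -0.80 (-1.01 after centring). Chloride, bicarbonate and fluid transport had a median of 0.28 over 23 of 33 names. The chloride channel gene Clcn2 was 14.8 for wt/wt against 53.3 for fl/fl at day 4, and 109 against 64.3 at day 6, a difference of 1.17, and the sodium-proton exchanger Slc9a3, at -0.72, was dim. Junction genes had a median of 0.34 over 28 of 30 names, led by the pore-forming claudin Cldn2 with 0.99, although its other probe set gave -0.19. Iron genes had a median of 0.12 over 13 of 19 names, and splicing kinases and SR proteins 0.26 over 31 of 32. The mesenchymal, immune and endothelial medians were -0.085, -0.19 and -0.21, over 6, 8 and 3 genes tested.

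**Figure D5:**
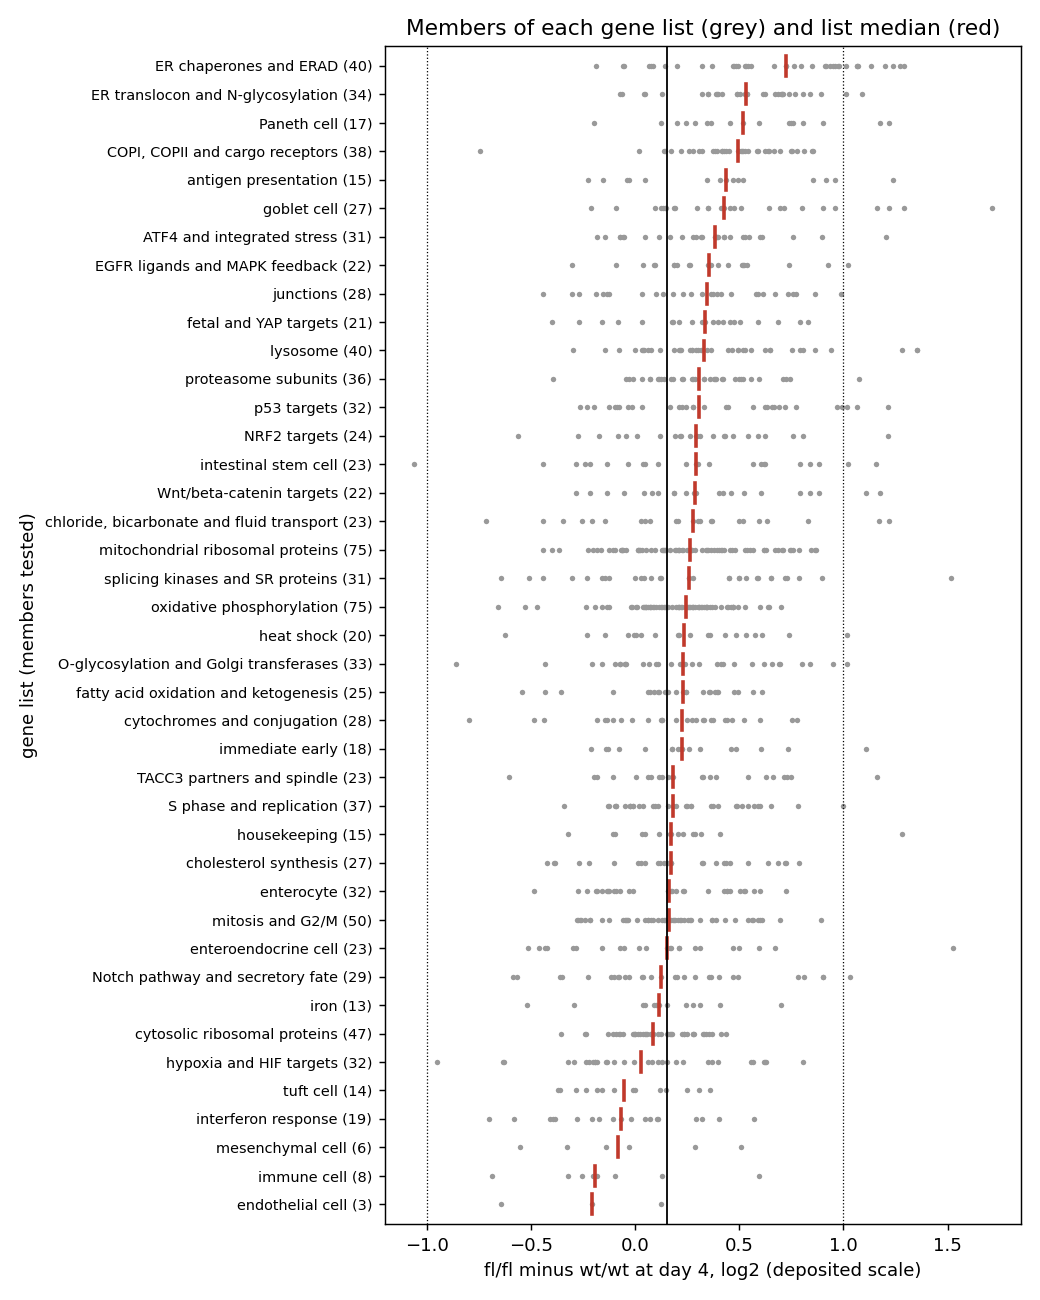
Day 4 difference (fl/fl minus wt/wt, log2, deposited scale) of the tested members of 41 gene lists (grey points), with the list median as a red bar and the number of members tested in brackets. The solid line is the median of all genes at 0.15 and the dotted lines mark 2-fold. ER chaperones and ERAD have the highest median, 0.72, and the 3 non-epithelial lists the lowest. The lists were chosen with earlier results of these data known.

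Gene families were also read without fixed lists, by grouping the tested genes on the letters before the first digit of their symbol. Of 177 families with at least 8 genes, Tmed cargo receptors had the highest median, 0.56 over 8 genes (0.34 after centring), with 7 above the median of all genes. They were followed by the splicing factors Srsf with 0.50 over 9 genes, the syntaxins Stx of membrane fusion with 0.44 over 11, the galectins Lgals with 0.41 over 8 and the family Sec, mostly of vesicle coats and translocon, with 0.40 over 25. The genes above the median of all genes were 5 of 9 for Srsf, 8 of 11 for Stx, 5 of 8 for Lgals and 18 of 25 for Sec. The Srsf and Lgals families were thus mixed. The lowest were the Fgf growth factors with -0.27 over 8 genes, Wnt ligands with -0.22 over 8, collagens Col with -0.16 over 11, Sox factors with -0.12 over 9 and Arhgef exchange factors with -0.12 over 20. Those 5 families were dim, with median day 4 intensities between 23.1 and 53.3. Genes under an intensity of 100 had the lowest median difference of the 3 level classes, 0.076, which lies above all 5 family medians. The part of the level in the place of these families was not tested.

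Genes next to each other in the order of their annotated start positions were also compared. On the deposited scale 6 pairs of adjacent tested genes were both 2-fold higher. They were Hoxb6 with Hoxb5, Hoxb5 with Hoxb3, Serpina1b with Serpina1c, Lratd2 with Myc, AW112010 with Ms4a8a, and Tent5a with Ibtk. Of all genes tested 1.38% were 2-fold higher on this scale. How many pairs that share alone would give was not worked out, so nothing is read from the number of pairs. After centring 2 pairs remained, Hoxb5 with Hoxb3 and Serpina1b with Serpina1c. Hoxb4, a tested gene of the same cluster, was in none of these pairs. Hoxb6 was 36.2 for wt/wt against 97.5 for fl/fl at day 4, and 134 against 84.5 at day 6, a day 4 difference of 1.12, and Ibtk was 22.97 for wt/wt against 78.3 for fl/fl, a difference of 1.27. The 20 tested genes around Tacc3, 10 on each side, had a median of 0.088 and ranged from -0.44 to 0.97. None of them was 2-fold different, where 1.38% of all genes were 2-fold higher and 0.105% lower.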

How the data were processed

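Total RNA of 4 mouse intestinal organoid cultures was hybridised, per the labels' protocols, to Affymetrix 3' expression arrays from 100 ng each. The authors deposited linear intensity values, as their range shows, for 45101 probe sets in every array. How probes were summarised and normalised was not given in the sources used here. The medians of the arrays were 15.4 to 17.7 and 95th percentiles 303.0 to 439.0.

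The deposited intensity was analysed as log2(intensity + 16) with pandas 2.3.3 and numpy 2.4.6. The platform table gave 1 symbol to 34958 probe sets, several to 932 and none listed for 9211. Of the first, 34754 symbols were updated by Entrez ID with RefSeq names of GRCm38.p6. The probe set with the highest mean stood for a gene, and genes were tested from the overall probe set median upward (5.04 on the log2 scale, intensity 16.9). The 4 scales were the deposited values, each array centred on its median, quantile normalization, and loess (statsmodels 0.14.6, span 0.3). Spike-in and hybridization control scalings, other pseudocounts, filters and probe set rules were alternatives. A gene was counted from a difference of 1 (2-fold), by size only.

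The rule for named genes took Tacc3 and Apc, the 25 highest and up to 15 lowest centred differences among genes 2-fold on all 4 scales (12 were found), up to 5 members of each of the 42 lists with the largest centred differences, 2-fold members of the described families and neighbour pairs, and genes 2-fold in opposite directions at both days. Other list members named for their known roles were chosen with their values in view. The members and lists were chosen with earlier results of these data known. The promoter sequences are from RefSeq. One gene symbol per probe set was used, without probe set positions.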

Additional observations from a re-analysis of the deposited data

Results flagged for a closer look

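Clk1, Hoxb3, Hoxb5 and 2610528A11Rik were 2-fold different between the genotypes at both days, in opposite directions, on the deposited and the centred scale. Clk1, a kinase that phosphorylates SR splicing factors, was 117 for wt/wt against 365 for fl/fl at day 4, and 1352 against 517 at day 6. The difference was 1.52 at day 4 and -1.36 at day 6. Hoxb3, a positional transcription factor, was 33.4 for wt/wt against 123 for fl/fl at day 4, and 425 against 143 at day 6, differences of 1.49 and -1.48. A second Hoxb3 probe set above the filter gave 0.65 and -0.29, with the same signs but not 2-fold at either day. Hoxb5, of the same cluster, was 104 for wt/wt against 297 for fl/fl at day 4, and 303 against 142 at day 6, differences of 1.38 and -1.01. The uncharacterised gene 2610528A11Rik went the other way, with -1.14 at day 4 and 1.62 at day 6. With 1 array per group the difference between the days was not tested. For Clk1, Hoxb3 and Hoxb5 the highest of the 4 arrays was wt/wt at day 6 and the lowest wt/wt at day 4. For Hoxb5 the fl/fl array at day 4 came close to the highest, at 297 against 303. In these genes the fl/fl arrays thus differed less between the days than the wt/wt arrays.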

How the results depend on the processing

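The count of 157 higher and 12 lower genes became 44 and 47 after centring and 65 and 27 with loess, and quantile normalization gave 38 lower genes. The share of higher genes among those counted went from 92.9% to 48.4% after centring, 75.3% with quantile normalization and 70.7% with loess. Scaling to the poly-A spike-ins gave 2078 and 1, with a median difference of all genes of 0.66, and scaling to the hybridization controls 777 and 1, with a median of 0.47. The median was -0.062 after centring, 0.012 with quantile normalization and -0.0025 with loess. A pseudocount of 4 gave 348 and 52 genes, and one of 64 gave 24 and 3. A filter at an intensity of 100 gave 94 and 7 with a median of 0.26, and no filter left a median of 0.023. The mean of all probe sets gave 69 and 6. Against all genes, the splicing list reversed to -0.0049, the mitochondrial ribosomal list to -0.0081 and the immune list to 0.33 with the filter at 100, which left the immune list 1 gene and the mesenchymal and endothelial lists none. Without x_at and s_at probe sets 3110021A11Rik reversed to 0.37. The cause of these moves was not tested, beyond the smaller number of genes that a stricter filter leaves. Of the 25 higher and 12 lower genes named for their size, 11 and 1 (Erdr1) were 2-fold in every setting that could give them a value. Under the poly-A scaling Tacc3 was -0.76 and Apc 1.01. No paired analysis was possible because each genotype has 1 array at day 4. Dim genes have little signal over background, and no replicate shows how far 2 arrays of the same organoids would differ.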

Other observations

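The Slc35 transporter family, some of whose members carry nucleotide sugars for the glycosylation enzymes of the ER and Golgi, was looked at after its values had been seen. Of 21 members tested, 14 were above the all-gene median and 5 (23.8%) were 2-fold higher on the deposited scale, against 1.38% of all genes, with a family median of 0.28. Slc35b1, which carries ATP into the ER, was 139 for wt/wt against 329 for fl/fl at day 4, and 296 against 334 at day 6, a day 4 difference of 1.15. Slc35b3, which carries the sulfate donor PAPS, was 58.4 for wt/wt against 155 for fl/fl at day 4, and 490.4 against 334 at day 6, a difference of 1.20. Slc35c1, the GDP-fucose transporter, was 30.2 for wt/wt against 78.0 for fl/fl, a difference of 1.03. Slc35e3 and Slc35f5 differed by 1.02 and 1.03. None of the 5 was 2-fold after centring.

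The Hoxb cluster was described on the same footing. Its 7 tested members had a median of 0.91 at day 4 and -0.58 at day 6. Hoxb4 was 121 for wt/wt against 198 for fl/fl at day 4, and 161 against 70.4 at day 6, differences of 0.65 and -1.04, and Hoxb9 was 37.4 for wt/wt against 84.4 for fl/fl at day 4, a difference of 0.91, with -0.013 at day 6. Hoxb2 and the antisense gene Hoxb5os were dim and differed by -0.15 and -0.19 at day 4.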
